A study of Homo sapiens with 6 samples.

Results

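The genes described here are 43 genes of the interferon response and of cytosolic nucleic acid sensing, chosen by name. They cover the sensors and their adaptors, interferons, the transcription factors of interferon signalling, interferon-stimulated effector genes, chemokines and antigen presentation. A probe set (the group of oligonucleotides that reads 1 transcript on the array) was used where it names exactly 1 of these symbols. This gave a value for 41 of the 43 genes, among 18132 genes in all; STAT2 and USP18 were not analysed here. The question was whether inhibition of mitotic kinases raises interferon genes or antigen presentation.

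The data came from 6 PrimeView oligonucleotide arrays of total RNA from cells labelled HCT-116, an established human colorectal carcinoma line, grown in RPMI 1640 with 10% fetal bovine serum. The 3 control arrays came from cells given the vehicle DMSO and the 3 treated arrays from cells given AAPK, which the series title describes as a dual inhibitor of the kinases Aurora A and PLK-1. The treatment field reads 10 µM and 48 h for all 6 samples, and every sample is described as expressing both kinases highly. The labels name 1 cell line and do not say whether the arrays of a group stand for separate cultures. The p-values therefore measure only the spread between these 6 samples, and that spread may be technical.

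Cells detect misplaced DNA and RNA with dedicated sensors. DNA in the cytosol, including that of ruptured micronuclei after faulty mitosis, is bound by cGAS, whose product activates STING, while MDA5 (encoded by IFIH1) and RIG-I (encoded by RIGI) bind double-stranded RNA and signal through MAVS. Both routes activate the kinase TBK1 and the transcription factor IRF3, which switch on interferon genes. Secreted interferon then acts through STAT proteins and IRF9 on a short promoter element, the interferon-stimulated response element, to raise effector genes such as IFIT1, MX1 and ISG15 and the genes of antigen presentation.

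That element has the core GAAA, then 2 bases of any kind, then GAAA, and it was searched on both strands, overlapping matches included, in RefSeq promoter sequences of build GRCh38.p14 that run from 250 bases before to 50 bases after each gene's start. Promoters were in the table for 33 of the 43 genes, and 21 of the 33 held the core in at least 1 promoter (63.6%), against 4.38% of all 27305 genes in the table. Counted by promoter, 3.57% of all 35116 promoters of this length held it. A match is a description of the letters and not evidence of a bound site. Upstream stretches of 6 of the genes are shown, because they carry this element in genes of different roles: a sensor (IFIH1), 4 effectors, and the class I light chain gene B2M. Capitals mark the matches, and 2 matches may overlap in 1 run of capitals.
IFIH1, chr2:162318686-162318853, minus strand: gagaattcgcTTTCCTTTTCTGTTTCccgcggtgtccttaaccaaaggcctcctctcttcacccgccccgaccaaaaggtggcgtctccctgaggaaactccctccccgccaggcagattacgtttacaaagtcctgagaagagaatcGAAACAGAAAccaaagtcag
ISG15, chr1:1013374-1013409, plus strand: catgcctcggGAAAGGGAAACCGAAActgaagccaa
IFIT1, chr10:89392497-89392539, plus strand: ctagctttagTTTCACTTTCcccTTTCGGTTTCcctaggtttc
IFITM1, chr11:313990-314019, plus strand: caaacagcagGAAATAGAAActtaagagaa
IFITM3, chr11:320876-320922, minus strand: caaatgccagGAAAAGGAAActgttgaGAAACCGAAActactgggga
B2M, chr15:44711363-44711398, plus strand: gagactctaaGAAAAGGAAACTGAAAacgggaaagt

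Values are deposited log2 signals, and each change is the AAPK mean minus the DMSO mean in log2 units, fitted with limma over all 18132 genes on the brightest probe set of each gene and called at an adjusted p under 0.05. The median log2 signal of an array was 6.46 to 6.50. Pairs of arrays from 1 group correlated at 0.9976 to 0.9983 and pairs from different groups at 0.9942 to 0.9954. The 3′ minus 5′ signal of the GAPDH and ACTB controls, a measure of RNA integrity, had p-values well over 0.1 (exact permutation test, two-sided, p = 0.6 and 1, where 3 arrays against 3 cannot go below 0.1). No detection call was used. In its place the probe sets of 333 olfactory receptor genes, which are silent in most epithelial cells, set a reference: 95% of their mean signals lay at or under 7.54. By that reference 15 of the 41 genes were above and 26 were not, where 60.5% of all genes were not.

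The cell label was checked against marker genes. KRT8 and KRT18, keratins of simple epithelium, had mean signals of 11.93 and 12.48, and KRT8 rose by 0.17 (limma adjusted p = 0.0402), whose part in the results below was not tested. EPCAM (3.42), KRT19 (4.997), CDH1 (5.11), CDX2 (5.84) and CLDN7 (6.05), which also mark colorectal epithelium, were not above the olfactory receptor reference. EPCAM lay under even the 5th percentile of the olfactory receptor genes, 3.87. With 2 of 7 epithelial markers above the reference and 5 not, the markers do not settle the cell label. The label was kept as given, and the cause of the low signals was not tested. Of 13 immune cell markers, CD68 and ITGAX were above that reference, and the pan-leukocyte gene PTPRC was at 3.89. None of the 13 passed the limma threshold (2 had an unadjusted p under 0.05). The mean linear signal of the immune markers, as log2, was 6.74 to 6.87 in DMSO and 6.70 to 6.81 in AAPK. In a bulk sample, fewer cells of a kind and less RNA per cell cannot be told apart.

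On the brightest probe sets, IFITM1 alone of 24 interferon-stimulated effector genes was called higher in cells given AAPK. That call was lost without any 1 of the 6 arrays. The largest changes of the 41 genes on those sets were in the sensing pathway, in TBK1 and IFIH1. The IFIH1 signal was within the olfactory receptor range. A dimmer OAS1 probe set, described below, rose more, by 0.56, and OAS1 was called when its probe sets were averaged. The OAS1 signals were not above the olfactory receptor reference. TBK1 rose 1.32-fold, the RNA sensor gene IFIH1 was 1.36-fold lower, and MAVS and the antiviral membrane protein gene IFITM1 rose 1.15-fold and 1.11-fold on their brightest probe sets. These were the calls among the 41 genes, 3 higher and 1 lower, where 8.11% of all genes were called higher and 7.26% lower (15.4% in all). The median change of the 41 genes was -0.02, and that of all genes was also -0.02. No interferon-stimulated gene or antigen presentation gene reached a 1.5-fold rise on its brightest probe set, and for all 41 genes the 95% interval of the change on that probe set lay below a 1.5-fold rise, as it did for 99.3% of all genes. The highest upper bound was that of TBK1, at 0.52. Among the 37 genes that were not called, changes ran from -0.30 for IFIT2 to 0.15 for OAS1, and the highest upper bound on the brightest probe sets allowed a 1.21-fold rise. Of these 37, 12 were above the olfactory receptor reference. For genes not above it, an interval bounds the signal of the probe set and may not bound the transcript. The dimmer OAS1 probe set had an interval of 0.39 to 0.73.

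**Figure D1:**
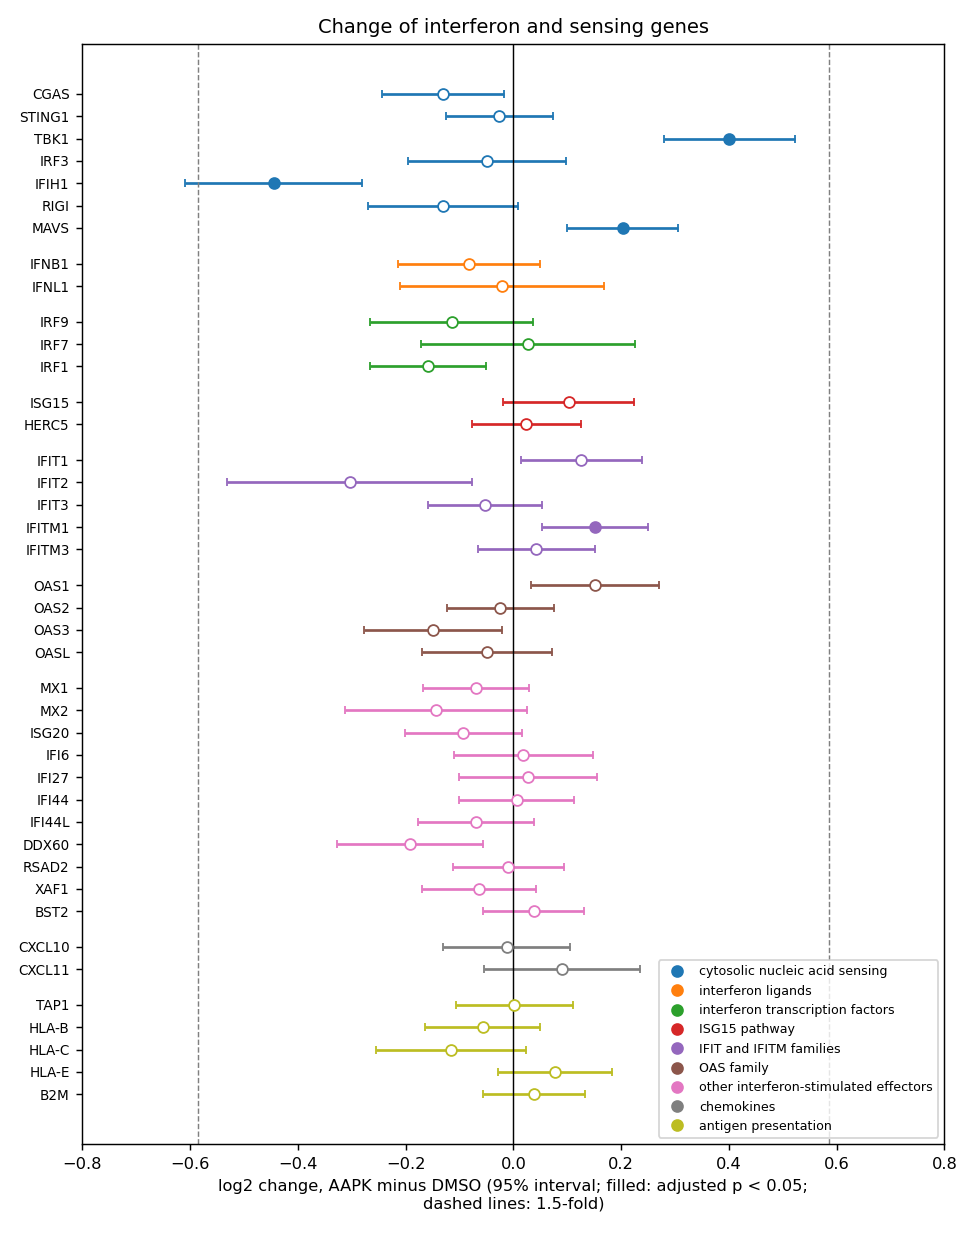
Log2 change (AAPK minus DMSO) of the 41 measured genes, each on its brightest probe set, with 95% intervals from limma, coloured by role. Filled points passed adjusted p 0.05 and dashed lines mark 1.5-fold. TBK1 (0.40) and MAVS (0.20) stand to the right and IFIH1 (-0.44) to the left, and the interferon-stimulated effectors and antigen presentation genes lie between -0.30 and 0.15.

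Of the 7 sensing genes, 2 were called higher and 1 lower (28.6% and 14.3%, against 8.11% and 7.26% of all genes). So few genes cannot show whether calls gather in this branch. Of the 3, TBK1 alone was called on every probe set. TBK1, the kinase that phosphorylates IRF3, read 7.90, 7.87 and 7.94 in DMSO and 8.20, 8.39 and 8.32 in AAPK. All AAPK arrays lay above all DMSO arrays, and the change was 0.40 ± 0.05 (SE, n = 3 per group; limma adjusted p = 8.03e-04). Its other probe set also rose, by 0.27 ± 0.06 (adjusted p = 0.0135 in a fit over all 44988 single-symbol probe sets, of which 12.9% were called). Under the 18 alternative settings the TBK1 change stayed between 0.34 and 0.45 and kept its call.

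IFIH1, whose product MDA5 recognises long double-stranded RNA, read 4.80, 4.74 and 4.98 in DMSO and 4.52, 4.31 and 4.35 in AAPK. The groups did not overlap, and the gene fell by 0.44 on the log2 scale (SE 0.07, limma adjusted p = 0.0025). These signals lie within the range of the olfactory receptor probe sets. The other IFIH1 probe set read 4.34, 4.23 and 3.92 in DMSO and 4.07, 4.05 and 4.01 in AAPK, groups that overlap, with a change of -0.12 (adjusted p = 0.462). With the mean of both probe sets the change was -0.28 (adjusted p = 0.00264).

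MAVS, the mitochondrial adaptor of both RNA sensors, read 7.74, 7.68 and 7.74 in DMSO and 7.92, 7.88 and 7.97 in AAPK on its brightest probe set, without overlap (change 0.20 ± 0.05, limma adjusted p = 0.0135). Its 7 probe sets did not move as 1: 3 had positive and 4 negative changes, from -0.10 to 0.20, and the brightest was the 1 that passed. The mean of the 7 changed by 0.02 (adjusted p = 0.803), so the MAVS rise holds for that probe set.

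**Figure D2:**
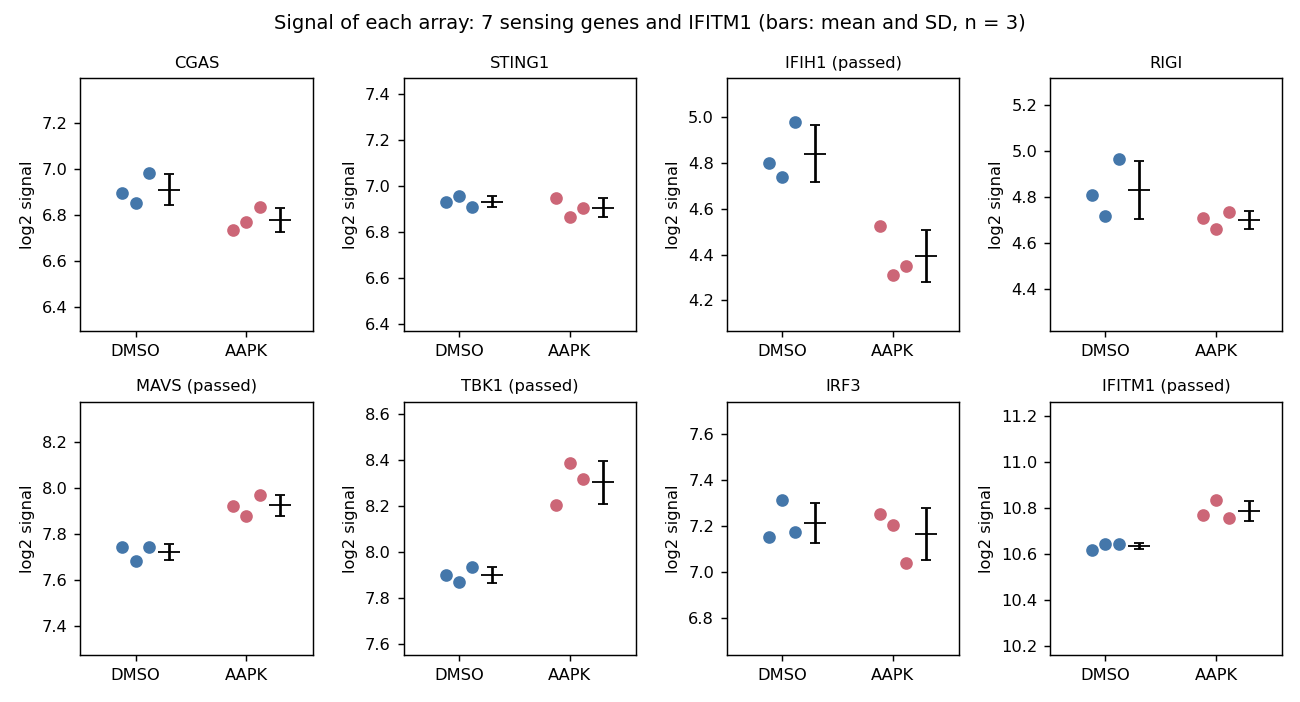
Log2 signal on each array for the 7 sensing genes and IFITM1, in DMSO (blue) and AAPK (red), with mean and SD over 3 arrays beside the points; every panel spans the same range of log2 units. TBK1, MAVS and IFITM1 are higher on all 3 AAPK arrays and IFIH1 is lower on all 3, while STING1 and IRF3 overlap.

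In the DNA sensing arm, CGAS and STING1 were not called on their brightest probe sets. TBK1, which the DNA and RNA routes share, was called higher, as given above. IFI16, a nuclear DNA sensor described below, was called lower, at a signal not above the olfactory receptor reference. CGAS, the gene of the sensor that makes the second messenger cGAMP, read 6.89, 6.85 and 6.98 in DMSO and 6.73, 6.77 and 6.84 in AAPK. The AAPK arrays all lay below the DMSO arrays, but the change of -0.13 did not pass (95% interval -0.24 to -0.02, limma adjusted p = 0.127). The second CGAS probe set was at -0.20 (adjusted p = 0.0548), and the mean of both passed at -0.17 (adjusted p = 0.0403). STING1, the receptor of cGAMP, read 6.93, 6.96 and 6.91 in DMSO and 6.95, 6.86 and 6.91 in AAPK, an overlap with a change of -0.03 (-0.13 to 0.07, adjusted p = 0.778).

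IRF3, the transcription factor activated by TBK1, read 7.15, 7.31 and 7.17 in DMSO and 7.25, 7.20 and 7.04 in AAPK. The groups overlap, its change was -0.05 (-0.20 to 0.10), and 4 of its 6 probe sets had positive changes. RIGI, whose product binds RNA with 5′ triphosphates, read 4.81, 4.72 and 4.97 in DMSO and 4.71, 4.66 and 4.73 in AAPK, with an overlap and a change of -0.13 (-0.27 to 0.01, adjusted p = 0.220). Its 2 other probe sets were at -0.04 and 0.13.

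The interferon genes themselves gave signals within the olfactory receptor range in both groups. IFNB1, interferon beta, had means of 4.10 in DMSO and 4.02 in AAPK, and IFNL1, interferon lambda 1, 5.18 and 5.16. Their changes were -0.08 and -0.02, and the higher upper bound of the 2 was 0.17. At signals this low the arrays cannot show whether either transcript was present.

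Of the transcription factors downstream of interferon, IRF1, which responds to interferon gamma, read 7.71, 7.76 and 7.80 in DMSO and 7.62, 7.64 and 7.54 in AAPK. All AAPK arrays were lower, and the change of -0.16 just missed the threshold (-0.27 to -0.05, limma adjusted p = 0.0510). Of its 3 other probe sets, 1 passed at -0.23 (adjusted p = 0.0387), and the others were at -0.15 and 0.00. IRF1 was called under 7 of the 18 alternatives. IRF9, the DNA-binding part of the complex that acts on the response element, had a change of -0.11 (-0.27 to 0.04), and its 4 probe sets were all negative. IRF7, which amplifies interferon production, was at 0.03 (-0.17 to 0.22).

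The effector genes induced by interferon numbered 24, of which 1 was called higher and 0 lower on their brightest probe sets. An unadjusted p under 0.05 was reached by 6 of the 24, where 26.8% of all genes reached it. Their median change was -0.01, 16 of them lay within 0.1 of 0, and the highest upper bound on those probe sets was 0.27. Of the 24, 6 were above the olfactory receptor reference and 18 were not, where 60.5% of all genes were not. Among those 6, changes ran from -0.02 for OAS2 to 0.15 for IFITM1, with a highest upper bound of 0.25.

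IFITM1, which blocks entry of viruses at membranes, read 10.62, 10.64 and 10.64 in DMSO and 10.77, 10.84 and 10.76 in AAPK. The groups did not overlap and the change was 0.15 ± 0.04 (limma adjusted p = 0.0431). This call was lost without any 1 of the 6 arrays (adjusted p from 0.0546 to 0.145) and with quantile normalisation, where the change was 0.08 (adjusted p = 0.260). Its second probe set had 0.13 (adjusted p = 0.113). IFITM3, its paralog with 2 matches of the response element core shown above, was at 0.04 (-0.07 to 0.15). The paralogs are similar in sequence, and their probe sets may pick up more than 1 transcript.

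Members of the IFIT family, which bind foreign RNA, went different ways without a call. IFIT1 read 7.65, 7.57 and 7.64 in DMSO and 7.69, 7.82 and 7.73 in AAPK, higher on all 3 AAPK arrays, with a change of 0.13 (0.01 to 0.24, limma adjusted p = 0.137). IFIT2 read 7.18, 6.81 and 7.24 in DMSO and 6.69, 6.71 and 6.91 in AAPK, where DMSO replicate 2 overlaps the AAPK arrays. Its change was -0.30 (-0.53 to -0.08, adjusted p = 0.0769), and without DMSO replicate 2 it was -0.44 and called (adjusted p = 0.00398). The other IFIT2 probe set was at -0.04, and IFIT3 was at -0.05.

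The OAS genes encode enzymes that make 2′-5′ oligoadenylates and so activate RNase L. On the brightest probe set OAS1 read 6.60, 6.59 and 6.46 in DMSO and 6.74, 6.72 and 6.64 in AAPK, all higher but not called (change 0.15, 0.03 to 0.27, limma adjusted p = 0.0920). A dimmer OAS1 probe set read 6.004, 5.74 and 6.01 in DMSO and 6.45, 6.57 and 6.41 in AAPK. There the rise was 1.47-fold (0.56 ± 0.08, adjusted p = 9.74e-04 over all probe sets), and another dim set rose by 0.26 (adjusted p = 0.00503).

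All 4 OAS1 probe sets had positive changes and their mean rose by 0.27 (adjusted p = 8.39e-04), so whether OAS1 is counted as changed depends on the probe set read. All 4 means lie under the olfactory receptor reference. OAS3 went the other way, at 5.68, 5.52 and 5.58 in DMSO and 5.49, 5.49 and 5.36 in AAPK, lower on all AAPK arrays without a call (-0.15, adjusted p = 0.123). OAS2 and OASL were at -0.02 and -0.05.

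ISG15, a ubiquitin-like modifier, had a change of 0.10 (-0.02 to 0.22), and HERC5, the ligase that attaches it, 0.02 (-0.08 to 0.13). Among 11 further effectors none was called (1 had an unadjusted p under 0.05, against 26.8% of all genes), with changes from -0.19 to 0.04 and a highest upper bound of 0.15. DDX60, a helicase linked to RIG-I signalling, was the lowest of them, at 5.90, 5.94 and 5.98 in DMSO and 5.67, 5.69 and 5.88 in AAPK. Its AAPK arrays were all lower, and the change of -0.19 had an adjusted p of 0.0605, which without AAPK replicate 3 became 0.00991 at -0.26.

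The interferon-induced GTPase genes MX1 and MX2 were at -0.07 and -0.14, the antiviral enzyme RSAD2 (viperin) at -0.01, and the exonuclease ISG20 at -0.09. BST2, the tetherin that retains budding virions, had a mean signal of 10.23 and a change of 0.04 (-0.06 to 0.13). IFI6, IFI27, IFI44, IFI44L and XAF1, interferon-induced genes of several functions, had changes of 0.02, 0.03, 0.01, -0.07 and -0.06. The chemokines CXCL10 and CXCL11, which attract T cells, had mean signals of 4.34 and 3.51, not above the olfactory receptor reference. Their changes were -0.01 and 0.09, with upper bounds of 0.11 and 0.24 for the probe set signals.

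Antigen presentation through HLA class I was measured by 5 genes, all above the olfactory receptor reference. None was called or had an unadjusted p under 0.05, where 15.4% and 26.8% of all genes did. A group of 5 genes is too small to set against these shares. B2M, the light chain of all class I molecules, read 13.14, 13.16 and 13.11 in DMSO and 13.19, 13.15 and 13.18 in AAPK. Its groups overlap and its change was 0.04 (-0.06 to 0.13, limma adjusted p = 0.636). Of its 8 probe sets, 2 of which hold identical values, 7 had negative changes down to -0.17. TAP1, a subunit of the transporter that loads peptides, read 8.36, 8.22 and 8.33 in DMSO and 8.30, 8.31 and 8.32 in AAPK, a change of 0.00 (-0.11 to 0.11).

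HLA-B read 9.31, 9.35 and 9.25 in DMSO and 9.24, 9.20 and 9.29 in AAPK, which overlap (change -0.06, -0.16 to 0.05). HLA-C read 11.05, 11.14 and 11.01 in DMSO and 11.06, 10.97 and 10.83 in AAPK, with a change of -0.12 (-0.26 to 0.02, adjusted p = 0.281) and negative changes on all 3 probe sets, from -0.15 to -0.12. HLA-E, the ligand of the NKG2A receptor of natural killer cells, read 9.54, 9.49 and 9.60 in DMSO and 9.57, 9.64 and 9.66 in AAPK, with a change of 0.08 (-0.03 to 0.18). Class I genes are close paralogs, so their probe sets may share signal. The 6 HLA-E probe sets ran from -0.06 to 0.16, 4 of them positive. On the brightest probe sets of the 5 genes the highest upper bound allowed a 1.14-fold rise and the lowest lower bound a 1.19-fold fall. Dimmer sets reached further both ways without a call. An HLA-E set was at 0.16 (0.02 to 0.30, limma adjusted p = 0.142) and a B2M set at -0.17 (-0.29 to -0.04, adjusted p = 0.0879).

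**Figure D3:**
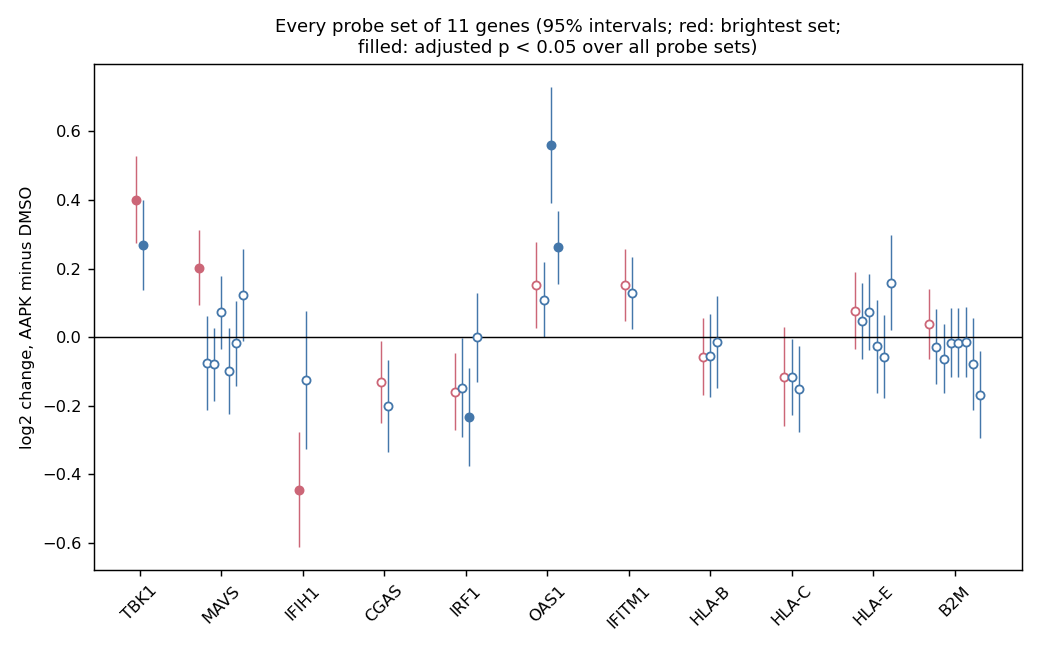
Log2 change (AAPK minus DMSO) with 95% interval for every probe set of 11 genes; red marks the brightest set, and filled points passed adjusted p 0.05 over all 44988 probe sets. Both TBK1 sets are filled, 2 dimmer OAS1 sets (0.26 and 0.56) rise above the brightest (0.15), and the MAVS sets lie on both sides of 0.

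Over all 41 genes, 110 probe sets were read. Of the 69 that were not the brightest of their gene, 43 had the sign of the brightest, and 4 passed in the fit over all probe sets, 3 higher (TBK1 and 2 of OAS1) and 1 lower (IRF1). All AAPK arrays lay above all DMSO arrays for 5 of the 41 genes and below them for 7, where these shares over all genes were 14.9% and 17.1%. Of the 21 genes with the response element core, IFITM1 was called higher and IFIH1 lower, and their median change was 0.00. Of the 11 measured genes whose promoter lacked it, TBK1 and MAVS were called, and the median change was -0.06.

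The wider pathway was read through 6 lists of related genes. Of 128 genes 123 were measured, and 10 were higher and 9 lower (8.13% and 7.32%, against 8.11% and 7.26% of all genes), with a median change of -0.01. Of the 19 called genes, 10 had mean signals under the olfactory receptor reference: TLR3, IFI16, IFNAR1, SP100, HLA-DMA, RFXAP, MICA, CXCL2, CCL2 and RELB. Among 16 sensors and adaptors, 1 was higher and 3 lower, with a list median of -0.09. IFI16, a nuclear DNA sensor of the interferon-inducible p200 family, read 7.41, 7.35 and 7.52 in DMSO and 6.73, 6.83 and 6.97 in AAPK. It was 1.5-fold lower (-0.59 ± 0.07, limma adjusted p = 2.87e-04), a larger change than that of any of the 41 genes on their brightest probe sets.

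TLR3, the endosomal receptor of double-stranded RNA, was at -0.22 at a mean signal of 3.56, low even among the olfactory receptor genes, a call lost without AAPK replicate 1 (-0.20, adjusted p = 0.0565). G3BP1, a stress granule protein that assists RIG-I and cGAS, rose by 0.21, with 0.34 on the probe set with the largest spread. IKBKE, the kinase most like TBK1, was at -0.17 (adjusted p = 0.0440) and was named after its value was seen. Its call was lost without any array but AAPK replicate 1 (adjusted p up to 0.139), and the mean of its probe sets was at -0.07 (adjusted p = 0.308).

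Among 10 genes of nucleic acid clearance and editing, PNPT1, a mitochondrial RNA exonuclease, rose by 0.37 (limma adjusted p = 9.05e-04), or 0.20 with its probe sets averaged. TREX1, the exonuclease that removes cytosolic DNA, fell by 0.17 on the log2 scale (adjusted p = 0.0228). The TREX1 call was lost without any array but DMSO replicate 3 (adjusted p up to 0.0972). The list median was -0.11.

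Of the interferon receptor genes, IFNAR1 rose and IFNGR1 fell, while IFNAR2 (0.05), IFNLR1 (-0.12) and IL10RB (-0.09) did not pass. IFNAR1, a subunit of the receptor for interferons alpha and beta, read 6.97, 6.93 and 6.99 in DMSO and 7.46, 7.48 and 7.39 in AAPK, a rise of 0.48 ± 0.05 (limma adjusted p = 8.78e-05), or 0.19 with its 4 probe sets averaged (adjusted p = 0.0064). IFNGR1, the ligand-binding chain of the interferon gamma receptor, read 8.38, 8.37 and 8.51 in DMSO and 8.01, 7.89 and 7.89 in AAPK, and fell by 0.49 on the log2 scale (adjusted p = 2.45e-04). Neither gene's groups overlapped. IFNGR2, the second chain, was at 0.15 (adjusted p = 0.0473), a call lost without any 1 array (adjusted p 0.0727 to 0.158). These were the calls among 15 receptor and JAK-STAT genes, whose median was 0.02.

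Of 38 further interferon-stimulated genes, 2 were higher and 1 lower, with a median of -0.01. ZC3HAV1, the antiviral zinc finger protein ZAP, rose by 0.36 (limma adjusted p = 0.00113), or 0.20 with its probe sets averaged, and EIF2AK2, the RNA-activated kinase PKR, by 0.20 (adjusted p = 0.0126; 0.0519 without AAPK replicate 1). SP100, a nuclear body protein, was at -0.16 (adjusted p = 0.0487) and lost its call without any array but DMSO replicate 1 (adjusted p up to 0.160). The mean of its probe sets was at -0.01, and that with the largest spread at 0.18 (adjusted p = 0.413).

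Of 27 further genes of antigen processing and presentation, 3 were higher and 1 lower, with a median of 0.02. RFXAP, a subunit of the factor that drives HLA class II genes, fell by 0.47 on the log2 scale (limma adjusted p = 9.49e-04). HLA-DMA, which loads peptides on class II, rose by 0.23, a call lost without DMSO replicate 1 (adjusted p = 0.0672) or AAPK replicate 2 (adjusted p = 0.0537). MICA, a stress ligand of the NKG2D receptor, read 7.19, 7.11 and 7.21 in DMSO and 7.36, 7.44 and 7.37 in AAPK, and rose by 0.22 (adjusted p = 0.0110). MICB, its paralog, named after its value was seen, was at 0.20 (adjusted p = 0.0317), and its call was lost without DMSO replicate 1 or 2 or AAPK replicate 2 or 3 (adjusted p 0.0844 to 0.111). The mean of the MICB probe sets was at 0.11 (adjusted p = 0.165).

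Targets of NF-kB, the other transcription factor reached by these sensors, had 1 of 17 higher and 2 lower, with a median of -0.08. CXCL2, a chemokine for neutrophils, fell by 0.39 on its brightest probe set, with -0.60 when its probe sets were averaged and -0.82 on the most variable of them. CCL2, a chemokine for monocytes, rose by 0.24 (limma adjusted p = 0.00727) at mean signals of 4.14 and 4.37, within the olfactory receptor range. RELB, an NF-kB subunit, was at -0.16 (adjusted p = 0.0390), a call lost without any array but DMSO replicate 2 (adjusted p up to 0.135).

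**Figure D4:**
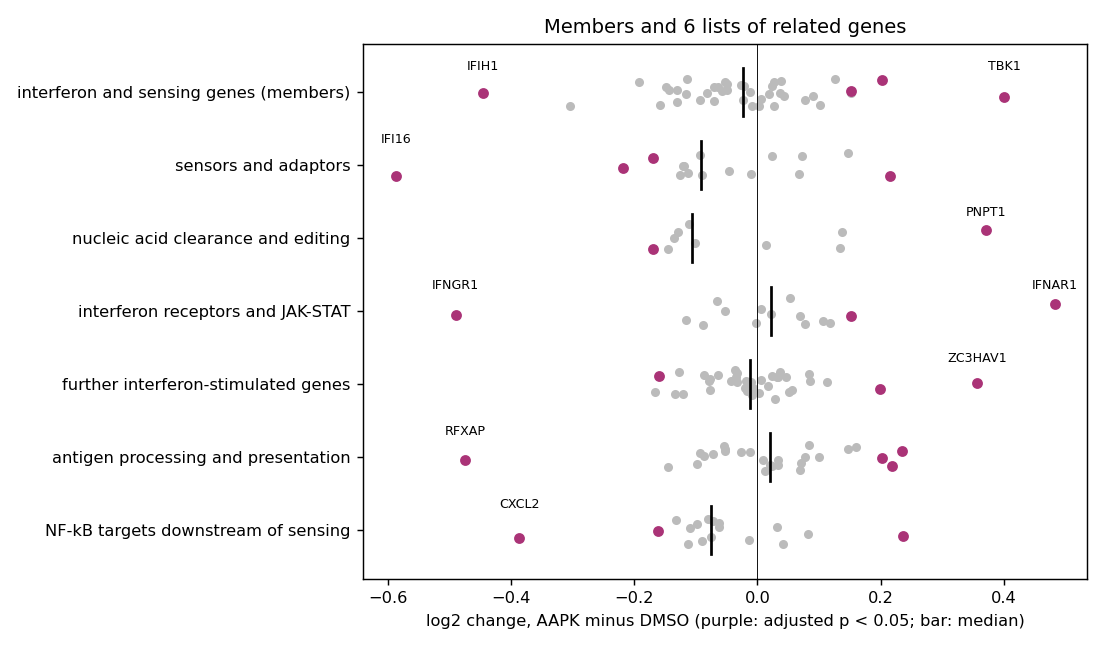
Log2 change (AAPK minus DMSO) of each gene among the 41 members (top) and in the 6 lists of related genes; purple points passed adjusted p 0.05, grey points did not, and bars mark medians. Medians lie between -0.11 and 0.02, and called genes stand on both sides of 0 in each list.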

How the data were processed

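The deposited values are log2 signals per probe set, made by the authors. The log2 scale was read from their range, and the near-equal medians of the arrays point to normalisation between arrays before deposit. How background was corrected and probes summarised is not given in the sources used here. Equalising arrays removes any change that most genes share. Of 49395 probe sets, 44988 named 1 symbol in the platform's table, 1832 several, 2473 none, and 102 were controls; symbols were checked by Entrez identifier against RefSeq of GRCh38.p14 (44961 matched, 0 changed). Each of 18132 genes was read on its brightest probe set (mean of the 6 arrays). AAPK and DMSO were compared with limma 3.58.1 in R 4.3.3 (lmFit, eBayes, two-sided, Benjamini-Hochberg over all genes), without a block. For arrays the number per group, 3, limits the precision. On simulated arrays of this comparison with 18132 genes, 91% of genes changed by 0.5 were recovered and 94.5% of intervals covered the true change. The simulation changed 200 genes and gave 164 calls, 5 of them false, against 2788 genes called in the data. The changes of the 41 genes on their brightest probe sets, -0.44 to 0.40, were all smaller than 0.5. The 91% does not apply to changes of that size. Every measured member was named; values on each array were given for sensing and antigen presentation genes, for members called or with an unadjusted p under 0.05 and for members with a called probe set, and the 3 largest calls were named per related list. The members and lists were chosen with earlier results of these data known. The alternatives were other normalisations, signal filters, probe set rules, variance priors, array weights, a replicate block, a threshold of 0.1, and leaving out each array.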

Additional observations from a re-analysis of the deposited data

Results flagged for a closer look

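Of 102 Affymetrix control probe sets, 3 passed in a limma fit over the controls alone, and all 3 read ribosomal RNA. The middle and 5′ sets of the large-subunit RNA were higher in AAPK by 0.51 and 0.56 on the log2 scale (adjusted p = 0.00947 and 0.0265). The 3′ set of that RNA was at -0.13 and did not pass. For the small-subunit RNA, the 3′ set changed by -0.41 (adjusted p = 0.0498). Its 5′ and middle sets, each at -0.06, did not pass. The sets of 1 RNA thus did not move alike. None of the control sets passed when any 1 of DMSO replicate 3 and the 3 AAPK arrays was left out. The part of the 3 called sets in the changes of the interferon and sensing genes was not tested.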

How the results depend on the processing

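TBK1 and IFIH1 kept their direction and call in every alternative that included them (18 and 16 settings). The count of called members, 3 higher and 1 lower, became 2 higher and 2 lower with quantile normalisation and with the replicate block. The count lower was 4 when probe sets were averaged, with array weights and at a threshold of 0.1, 3 with an intensity trend and 2 on the most variable probe sets. Leaving out 1 array gave 2 higher each time and 1 to 2 lower. All genes called ranged from 1921 to 2450 with 1 array left out. The median change of the members was 0.00 with median centring (-0.0041), and 0.0020 and 0.0181 after dropping the genes dimmer than the 25th or the 50th percentile, against -0.0402 to -0.0140 with 1 array left out. Intervals below a 1.5-fold rise numbered 40 on the most variable probe sets, OAS1 being the exception, and 27 and 19 with the signal filters, which kept only that many members. Of the 37 members not called, 6 were called under some alternative (CGAS, IRF1, IFIT2, OAS1, OAS3 and DDX60), and at most 6 members changed sign under any one, none of them called. The related gene SP100 was at 0.18 on its most variable probe set, against -0.16. With the replicate block 2099 genes were called against 2788 without it, and 0 control sets against 3; replicate numbers did not pair the arrays (correlations of same-numbered deviations -0.02, -0.23 and -0.05, and 0 of 6 arrays correlated best with its own number). Control sets called ranged from 0 to 3 with 1 array left out. The causes of these differences were not tested. Low signal limits 26 of the 41 members, where 60.5% of all genes were not above the olfactory receptor reference.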
